A study of Mus musculus with 8 samples.

Results

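Genes of myoblast fusion were examined as a set of 8 listed genes, Mymk, Mymx, Myof, Dysf, Jam2, Jam3, Kirrel and Adgrb3, matched by Ensembl identifier among the 27554 genes of the deposited count table. All 8 were in the table, and 7 of them passed the filter on low counts. The libraries came from muscle stem cells of hindlimb muscle, sorted by flow cytometry from mice that carry a ZsGreen reporter in Pax7 and an E2Crimson reporter in Myf5. The mice were on the C57BL/6NTac background, and the reporter alleles, Pax7tm3955(T2A-ZsGreen)Tac for Pax7 and Myf5tm3956(T2A-E2Crimson)Tac for Myf5, were present in every group. Myf5High and Myf5Low cells were Pax7-positive cells with the strongest and the weakest E2Crimson signal, taken from females and from males without further treatment, and the labels give no age. This made 4 groups of 2 libraries (female Myf5High, female Myf5Low, male Myf5High and male Myf5Low), with 4 mice pooled for each library. The pools are called F1, F2, M1 and M2 after the pool labels, and both fractions with the same pool label were treated as coming from the same mice.

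Myoblast fusion turns single muscle precursors into multinucleated fibres. Precursors first recognise and adhere to each other, then remodel their actin cortex, and finally merge their membranes. The last step depends on the muscle-specific membrane protein myomaker (Mymk) and on the micropeptide myomixer (Mymx), which are produced as precursors leave the stem cell state and differentiate, while resting muscle stem cells do not fuse. The ferlins, the junctional adhesion molecules, Kirrel and the receptor Adgrb3 have broader expression and further functions outside fusion.

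Libraries held 3140361 to 4238427 counts assigned to genes. A floor of 3 counts corresponded to 0.672 to 0.986 CPM per library, where CPM is the usual depth-adjusted count, here taken relative to the TMM-adjusted total of the genes tested. Pax7 transcript, which marks muscle stem cells, was at 1001 to 1498 CPM over the 8 libraries. Myf5 transcript was at 39.5 to 128 CPM in Myf5High and at 25.0 to 49.9 CPM in Myf5Low, so the libraries of the fractions overlapped in the transcript of the sorted gene (log2 fold change 1.19, SE 0.265; edgeR adjusted p 0.0284). Differences between groups were tested with edgeR's quasi-likelihood test on all 11730 genes that passed the filter. A gene is described as called when its p-value, adjusted over all of these genes by the Benjamini-Hochberg method, was under 0.05.

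The comparison of Myf5High with Myf5Low asked how transcripts of fusion genes differ between the ends of the Myf5 reporter range. Mymk was the only member called, and it was lower in Myf5High. That is 1 of 7 tested members, against 1.2% of all genes tested called in either direction and 0.435% called lower. The other 6 tested members were not called, and their median log2 fold change together with Mymk was -0.53, against -0.02 over all genes tested. Libraries of the fractions did not overlap for 1 of the 8 members, again Mymk, where 4.58% of all genes tested did not overlap in either direction.

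**Figure D1:**
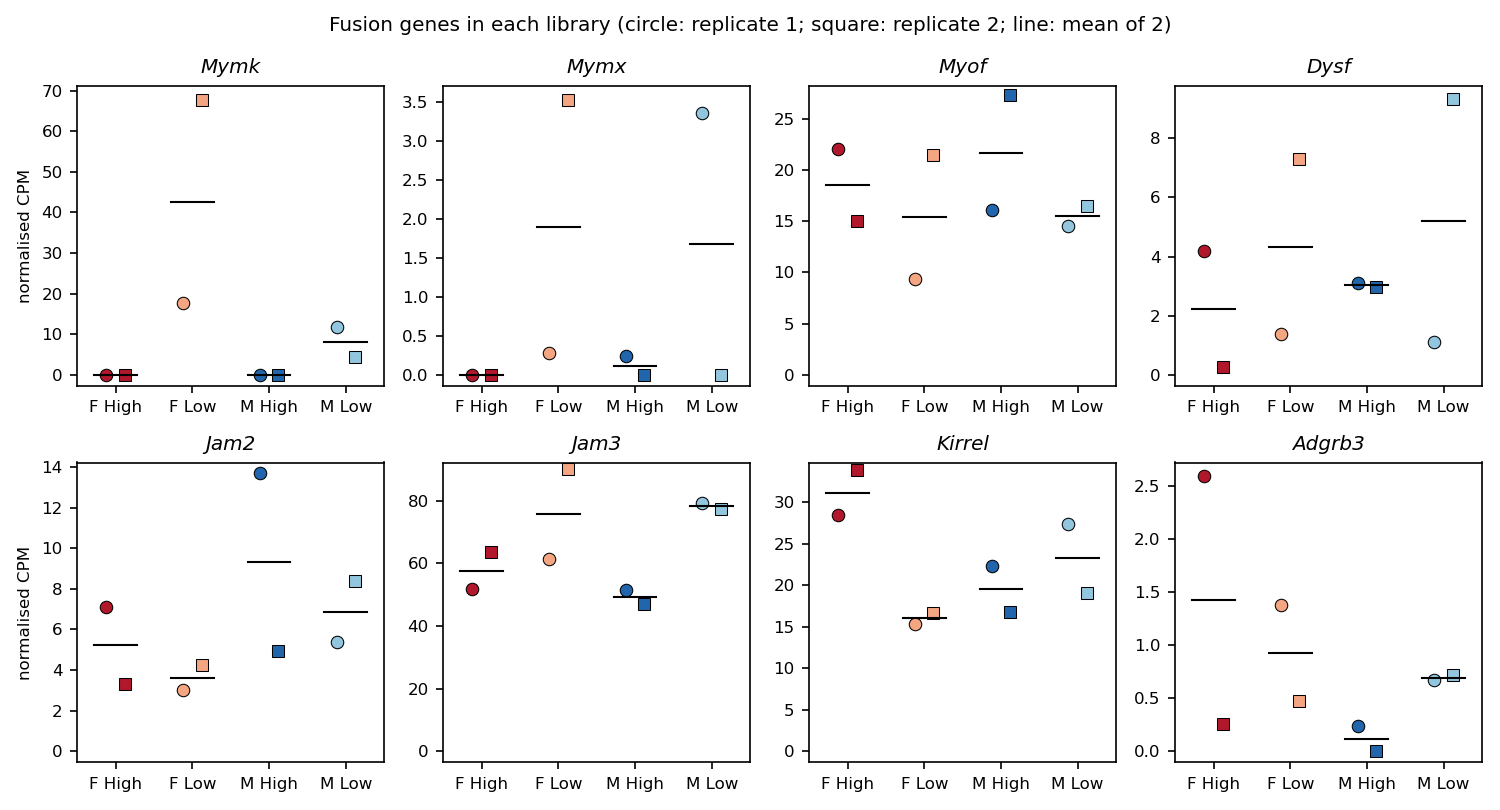
Normalised CPM (vertical axes, linear, a separate scale for each gene) of the 8 fusion genes in the female (F) and male (M) Myf5High and Myf5Low libraries, with circles for replicate 1, squares for replicate 2 and a line at the mean of the 2 libraries. Mymk lies at 0 in the 4 Myf5High libraries and between 4.3 and 67.7 CPM in the 4 Myf5Low libraries, while the Myf5High and Myf5Low libraries of the other 7 genes overlap.

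Mymk encodes myomaker, a membrane protein required on fusing muscle cells. The gene (ENSMUSG00000009214) lies on chromosome 2 from 27061636 to 27072179 on the minus strand of GRCm38. It had 0 counts in each of the 4 Myf5High libraries. In Myf5Low it had 64 and 288 counts in the female libraries, or 17.6 and 67.7 CPM, and 53 and 18 counts in the male libraries, or 11.9 and 4.30 CPM. Every Myf5Low library was therefore above every Myf5High library, and the Myf5Low libraries themselves differed widely. Female Myf5Low replicate 2 alone held 68.1% of all Mymk counts.

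The Myf5Low mean was 25.4 ± 28.8 CPM (SD, n = 4). Against a floor of 3 counts per library, the Myf5High level of Mymk over both sexes was at least 29.5-fold lower (edgeR adjusted p 0.000108, lower in 4 of 4 pools). Without female Myf5Low replicate 2 the bound was at least 13.1-fold lower and the call was kept (edgeR adjusted p 0.00266). Within single pools the bound was at least 18.1-fold lower in F1, at least 88.7-fold lower in F2, at least 16.5-fold lower in M1 and at least 4.36-fold lower in M2. In bulk libraries such as these, fewer cells with the transcript and less transcript per cell cannot be told apart.

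Within each sex the same gene was called. In females the Myf5High level was at least 49.2-fold lower, with an edgeR adjusted p of 0.00131, where 0.332% of all genes tested were called. This call was lost without female Myf5Low replicate 2 (edgeR adjusted p 0.0858). The male Myf5High level was at least 9.48-fold lower (edgeR adjusted p 0.0373), where 0.171% of all genes tested were called. The male call was lost when the 4 male libraries were fitted alone (edgeR adjusted p 0.307), under a stricter filter on low counts (0.0607), and without male Myf5High replicate 1 (0.0936), male Myf5Low replicate 1 (0.14) or female Myf5Low replicate 2 (0.102). With the pool as a block Mymk was the member called over both sexes, in females and in males, where 1.16%, 0.281% and 0.222% of all genes tested were called. Mymk was not called in the interaction of sex and fraction. The standard error of this term could not be estimated for a gene at 0 in both Myf5High groups.

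In Myf5Low Mymk was at 17.6 and 67.7 CPM in the female libraries and at 11.9 and 4.30 CPM in the male libraries. A comparison of the sexes within Myf5Low, added after the values were seen, gave a female minus male log2 difference of 2.39 (SE 0.69, 95% interval 0.93 to 3.86), which was not called (edgeR adjusted p 0.308, unadjusted p 0.00314, with 0.205% of all genes tested called). With the counts of each pool summed over both fractions, the log2 difference was 2.36 (edgeR adjusted p 0.0557, with 1.63% of all genes tested called). Since Mymk was at 0 in Myf5High, these sums are the Myf5Low counts again and not separate evidence. The comparison of the sexes over both fractions gave 1.20 and was not called, and its standard error could not be estimated. Each of these comparisons of the sexes rests on 2 pools per sex. Without female Myf5Low replicate 2 the fitted interaction of Mymk moved from -2.39 to -1.12. With Mymk at 0 in both Myf5High groups, this fitted value is the Myf5Low sex difference with its sign turned.

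Myog encodes myogenin, a transcription factor of differentiating muscle cells, and was the reference for how far the Mymk levels follow differentiation transcripts. Per kilobase of exon, the Mymk level in Myf5Low was 11.6 and 44.8 CPM per kb in the female libraries and 7.86 and 2.85 CPM per kb in the male libraries. The Myog level in the same libraries was 104, 356, 83.5 and 62.6 CPM per kb. Both genes had the same order of libraries, highest in female replicate 2 and lowest in male replicate 2.

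The Mymk level per kilobase was 11.2% of the Myog level in female replicate 1 (95% interval 8.52 to 14.5), and 12.6% in female replicate 2 (11.1 to 14.2). In the males it was 9.41% in replicate 1 (6.96 to 12.5) and 4.54% in replicate 2 (2.66 to 7.28). The intervals are exact binomial ones and cover counting error only. The ratio in male replicate 2 was below that in both female libraries beyond counting error, while the other 3 libraries had overlapping intervals. Myod1, an earlier regulator of muscle commitment, was present in both fractions, at 21.04 to 73.7 CPM in Myf5High and at 74.3 to 140 CPM in Myf5Low. Its log2 fold change of -0.97 (SE 0.263) was not called (edgeR adjusted p 0.103), and was called with the pool as a block (-1.01, edgeR adjusted p 0.0486).

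**Figure D2:**
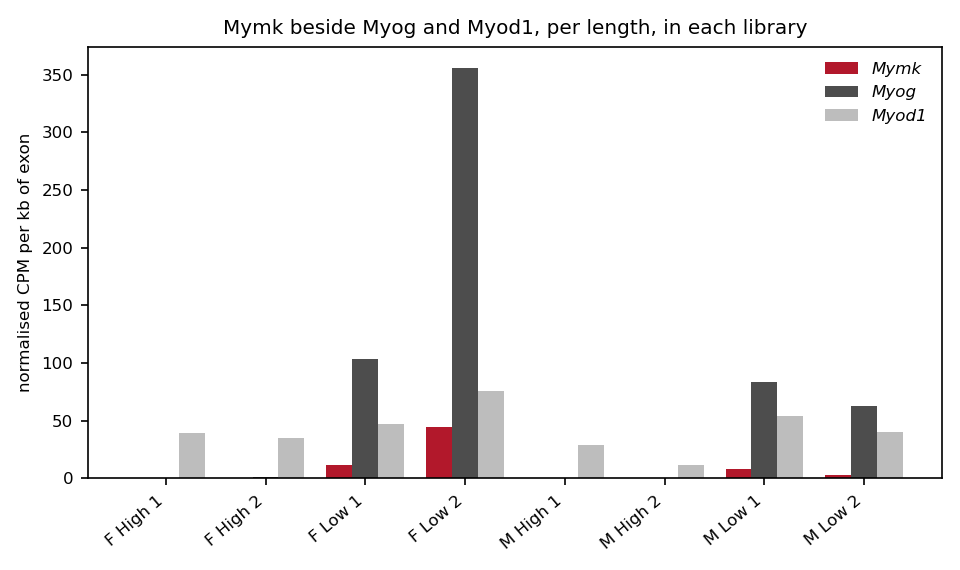
Level per kilobase of exon (vertical axis, linear, normalised CPM per kb) of Mymk, Myog and Myod1 in each of the 8 libraries, labelled by sex, fraction and replicate. The 4 Myf5Low libraries have the same order for Mymk and Myog, highest in female Myf5Low replicate 2 at 44.8 and 356 CPM per kb, while Myod1 has a bar in every library.

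The 3 genes with the pattern most like that of Mymk were found among the 9544 tested genes that averaged 5 CPM or more, by Pearson correlation of log2 CPM over the 8 libraries. They were Cdkn1c, a cyclin-dependent kinase inhibitor (r = 0.989), B3gntl1 (r = 0.973) and Myog (r = 0.972). These values are a description, since the libraries fall into 2 fractions and share their depth and pools. Cdkn1c averaged 11.8 ± 3.71 CPM in the Myf5High libraries and 279.98 ± 213 CPM in the Myf5Low libraries (SD, n = 4 each), and its libraries followed the same order as Mymk within Myf5Low, at 239, 588, 187 and 105 CPM. B3gntl1 was much closer between the fractions, at 3.602 to 4.53 CPM in Myf5High and 5.50 to 9.64 CPM in Myf5Low, and was not called (edgeR adjusted p 0.757).

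Mymx encodes myomixer, the micropeptide that acts with myomaker to open the fusion pore. The gene (ENSMUSG00000079471) lies on chromosome 17 from 45600971 to 45602102 on the minus strand. It was near the detection floor, with 32 counts over the 8 libraries. Of these, 31 were in Myf5Low, at 1 and 15 counts in the female libraries and 15 and 0 in the male libraries. Myf5High held 1 count in male replicate 1 and 0 in the other 3 libraries. High Mymx was thus seen in 2 libraries of different sex, at 3.53 CPM in female Myf5Low replicate 2 and at 3.36 CPM in male Myf5Low replicate 1.

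Summed over libraries, the ratio of Myf5Low to Myf5High Mymx was 26.7, with a 95% counting interval of 4.44 to 1087. The fitted log2 fold change of -4.64 (SE 2.02) was not called (edgeR adjusted p 0.465), and the libraries of the fractions overlapped. The fitted value was -5.80 without male Myf5High replicate 1, which held the only Mymx count of Myf5High. That value therefore depends on the prior count of the fit. Without male Myf5Low replicate 1 the fitted value was -1.78, but its standard error could not be estimated in that fit. The ratio of summed counts rests on the single Myf5High count. Mymk and Mymx did not share their order of libraries. Male Myf5Low replicate 1 had as many Mymx counts as female Myf5Low replicate 2 but 53 Mymk counts against 288. At this depth the absence of Mymx from a library cannot be separated from a level under 0.986 CPM.

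The ferlins are large membrane-anchored proteins with several calcium- and lipid-binding C2 domains. Myoferlin (Myof) acts in myoblast fusion and vesicle recycling, and dysferlin (Dysf) in the repair of the muscle fibre membrane. Neither differed detectably between the fractions. Myof (ENSMUSG00000048612, chromosome 19, 37899036 to 38043577, minus strand) was at 22.0 and 15.02 CPM in female Myf5High and 9.34 and 21.4 CPM in female Myf5Low. The male libraries were at 16.1 and 27.3 CPM in Myf5High and 14.6 and 16.5 CPM in Myf5Low. It was detected in every library with no separation of fractions or sexes. The log2 fold change was 0.37 (SE 0.348, 95% interval -0.36 to 1.10; edgeR adjusted p 0.868).

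Dysf (ENSMUSG00000033788, chromosome 6, 84008590 to 84211060, plus strand) was low, with 116 counts in all. It was at 4.20 and 0.255 CPM in female Myf5High and at 1.37 and 7.29 CPM in female Myf5Low. In males it was at 3.12 and 2.96 CPM in Myf5High and at 1.12 and 9.32 CPM in Myf5Low. Dysf was higher in Myf5High in pools F1 and M1 and lower in pools F2 and M2, so the direction depended on the pool. The fitted log2 fold change of -0.88 (SE 0.936, 95% interval -2.85 to 1.09) was not called (edgeR adjusted p 0.894). It changed sign to 0.22 without male Myf5Low replicate 2.

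Summed markers of other cell types differed between the Myf5Low libraries with more and with less Dysf, in either direction. The summed level of 12 immune marker genes was 95.96 and 97.5 CPM in the replicate 2 libraries of female and male Myf5Low, where Dysf was at 7.29 and 9.32 CPM. It was 51.6 and 63.4 CPM in the replicate 1 libraries, where Dysf was at 1.37 and 1.12 CPM. The summed glial markers were likewise at 230 and 263 CPM in those replicate 2 libraries and at 171 and 162 CPM in the replicate 1 libraries, and the summed endothelial markers at 654 and 1221 CPM against 527 and 694 CPM. The summed fibro-adipogenic markers went the other way, at 1269 and 1519 CPM in the replicate 2 libraries and 1537 and 1671 CPM in the replicate 1 libraries. Cd34 was the largest part of that sum, at a mean of 642 CPM over the Myf5Low libraries. The summed mural markers were at 1673 CPM in replicate 2 and 1873 CPM in replicate 1 of the females, and at 1532 and 1049 CPM in the males. In female Myf5High the summed immune markers were at 49.2 and 28.8 CPM, and Dysf was at 4.20 and 0.255 CPM. In male Myf5High the summed immune markers were at 22.6 and 59.8 CPM, while Dysf was at 3.12 and 2.96 CPM. Of the 12 immune markers 8 were tested, 1 was called (C1qa, lower in Myf5High), and 0 were at 0 counts in all libraries. Their summed level was 22.6 to 59.8 CPM in Myf5High and 51.6 to 97.5 CPM in Myf5Low. The part of these cell types in the Dysf level was not tested.

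The RefSeq promoter table for GRCm38.p6 held entries for 4 of the 8 members (Myof, Dysf, Kirrel and Adgrb3). Dysf had 2 start windows, which are shown because gene counts merge transcripts from both, so the Dysf values above cannot be assigned to either start. Each runs 5′ to 3′ on the plus strand from 250 bases before to 50 bases after the start, at chr6:84008348-84008647 and chr6:84019136-84019435. Capitals mark the E-box CANNTG, the motif recognised by factors of the Myod1 and Myog family, searched on both strands.
Dysf upstream start: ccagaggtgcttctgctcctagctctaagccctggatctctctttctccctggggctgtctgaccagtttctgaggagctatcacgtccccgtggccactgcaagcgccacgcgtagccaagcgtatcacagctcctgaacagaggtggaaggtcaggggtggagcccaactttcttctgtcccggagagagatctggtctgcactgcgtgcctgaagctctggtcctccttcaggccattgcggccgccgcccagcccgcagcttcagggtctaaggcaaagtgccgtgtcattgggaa
Dysf downstream start: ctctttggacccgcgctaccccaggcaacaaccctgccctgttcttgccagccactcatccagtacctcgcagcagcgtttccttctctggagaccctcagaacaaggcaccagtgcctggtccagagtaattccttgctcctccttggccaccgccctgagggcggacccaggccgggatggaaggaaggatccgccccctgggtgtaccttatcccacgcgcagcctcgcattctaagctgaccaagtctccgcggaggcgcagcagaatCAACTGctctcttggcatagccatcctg
The downstream window held 1 E-box, 22 bases after the start, and the upstream window 0. An E-box occurs in 72.3% of the 32851 promoter windows of 300 bases in the table. The windows of Myof and Kirrel held 0 and that of Adgrb3 held 2. A match is a description of the letters and not a bound site.

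Jam2 and Jam3 encode junctional adhesion molecules, immunoglobulin-type surface proteins that bind each other between neighbouring cells and are also abundant at endothelial junctions. Jam3 was the most abundant member on average over the 8 libraries, although Mymk averaged more per kilobase in female Myf5Low. The Jam3 gene (ENSMUSG00000031990) lies on chromosome 9 from 27097384 to 27155421 on the minus strand. The Jam3 level per kilobase of exon over the 8 libraries was 20.4 ± 4.85 CPM per kb (SD, n = 8), against 1.03 ± 0.58 for Jam2. Jam3 was at 51.7 and 63.6 CPM in female Myf5High and at 61.5 and 90.1 CPM in female Myf5Low. Male Jam3 was at 51.4 and 47.0 CPM in Myf5High and at 79.3 and 77.4 CPM in Myf5Low.

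Jam3 was lower in Myf5High in 4 of 4 pools, with Myf5Low above Myf5High 1.19-fold in F1, 1.42-fold in F2, 1.54-fold in M1 and 1.65-fold in M2. Across pools the fractions overlapped, because female Myf5High replicate 2 was above female Myf5Low replicate 1. The log2 fold change of -0.53 (SE 0.213, 95% interval -0.98 to -0.09) was not called after adjustment over all genes (edgeR adjusted p 0.386, unadjusted p 0.0222). An unadjusted p under 0.05 was found for 9.36% of all genes tested. In single sexes the log2 fold change was -0.39 (SE 0.30) in females and -0.67 (SE 0.301) in males, and neither was called (edgeR adjusted p 0.888 and 0.711).

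Jam2 (ENSMUSG00000053062, chromosome 16, 84774123 to 84825928, plus strand) was at 7.11 and 3.31 CPM in female Myf5High and 3.02 and 4.23 CPM in female Myf5Low. In the male libraries Jam2 was at 13.7 and 4.93 CPM in Myf5High and 5.38 and 8.36 CPM in Myf5Low. Like Dysf, it was higher in Myf5High in pools F1 and M1 and lower in F2 and M2. The log2 fold change of 0.48 (SE 0.576, 95% interval -0.73 to 1.69) was not called (edgeR adjusted p 0.913).

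Among the members that passed the filter, Jam2 had the largest fitted sex difference other than Mymk and Mymx, at a female minus male log2 value of -0.88 (SE 0.578). This was not called (edgeR adjusted p 0.535), and 0 of 7 tested members were called between the sexes, against 1.65% of all genes tested (194 genes in edgeR, 13.9% at an unadjusted p under 0.05). Female libraries averaged 4.42 ± 1.87 CPM and male libraries 8.09 ± 4.03 CPM (SD over 4 libraries of each sex), and their ranges overlapped. These libraries come from 2 pools per sex, and the fractions of a pool were counted as separate libraries in this test. With the counts of each pool summed, 0 of 7 members and 195 genes (1.63%) were called, and the Jam2 difference was -0.91 (SE 0.529; edgeR adjusted p 0.486). Some endothelial markers were called between the sexes. The summed level of 12 endothelial genes, of which 12 were tested and 0 were at 0 counts in all libraries, was 372 to 654 CPM in females and 694 to 1221 CPM in males. Of them 2 were called lower in females, Egfl7 and Eng, named here after their values were seen, and the other 10 were not called. The part of endothelial cells in the Jam2 and Jam3 levels was not tested.

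Kirrel encodes an immunoglobulin-type adhesion molecule of the nephrin family, related to the fly receptors that bring founder cells and fusion-competent myoblasts together. The gene (ENSMUSG00000041734) lies on chromosome 3 from 87078593 to 87174747 on the minus strand. It was at 28.5 and 33.9 CPM in female Myf5High and at 15.4 and 16.7 CPM in female Myf5Low. In males it was at 22.3 and 16.8 CPM in Myf5High and at 27.3 and 19.1 CPM in Myf5Low. The order of group means was female Myf5High (31.2 ± 3.82 CPM), male Myf5Low (23.2 ± 5.81 CPM), male Myf5High (19.6 ± 3.94 CPM) and female Myf5Low (16.0 ± 0.931 CPM; SD, n = 2 each). The male groups overlapped each other, and male Myf5High lay above female Myf5Low by less than its own spread.

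In females Kirrel was higher in Myf5High in both pools, 1.85-fold in F1 and 2.03-fold in F2. In males it was lower in Myf5High in both pools, at 0.817 times and 0.877 times the Myf5Low level, with overlapping libraries. The female log2 fold change of 0.96 (SE 0.406) and the male one of -0.24 (SE 0.403) were not called (edgeR adjusted p 0.581 and 0.999). The test of the difference between the sexes gave a log2 interaction of 1.20 (SE 0.571, 95% interval 0.002 to 2.40), which did not pass after adjustment (edgeR adjusted p 1.0, unadjusted p 0.0497). In this test 0 of 7 tested members and 0% of all genes were called by edgeR, with 533 genes (4.54%) at an unadjusted p under 0.05, while DESeq2 called 2 genes and 0 members. With all genes kept, whatever their counts, edgeR called 14 genes and 0 members.

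**Figure D3:**
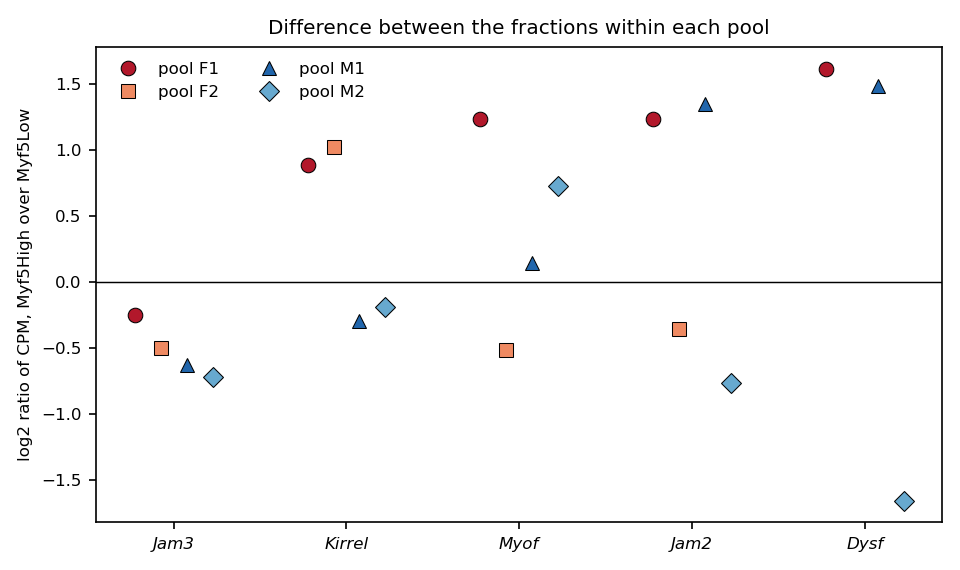
Log2 ratio of CPM in Myf5High over Myf5Low (vertical axis, linear in log2) within each of the pools F1, F2, M1 and M2 for Jam3, Kirrel, Myof, Jam2 and Dysf, without the F2 value of Dysf, where Myf5High had 1 count. Jam3 lies below 0 in 4 of 4 pools, Kirrel lies above 0 in both female pools and below 0 in both male pools, and Jam2 and Dysf lie above 0 in F1 and M1 and below 0 in M2.

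Adgrb3 (ENSMUSG00000033569, chromosome 1, 25067476 to 25829707, minus strand) encodes an adhesion G protein-coupled receptor that signals through Elmo and Dock1 in myoblasts and is best known from the nervous system. It was the least abundant member and did not pass the filter, with 23 counts over the 8 libraries. Myf5High held 8, 1, 1 and 0 counts (female replicates 1 and 2, then male replicates 1 and 2), and Myf5Low held 5, 2, 3 and 3 counts in the same order. Only female replicate 1 of either fraction was above the floor of 3 counts. Adgrb3 averaged 0.77 ± 1.22 CPM over the Myf5High libraries against 0.808 ± 0.392 CPM over the Myf5Low libraries (SD, n = 4 each), and a two-sided exact permutation test over the 8 libraries gave p = 1.0, where 0.0286 is the smallest p it can give. A difference in Adgrb3 was not detectable at this depth.

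**Figure D4:**
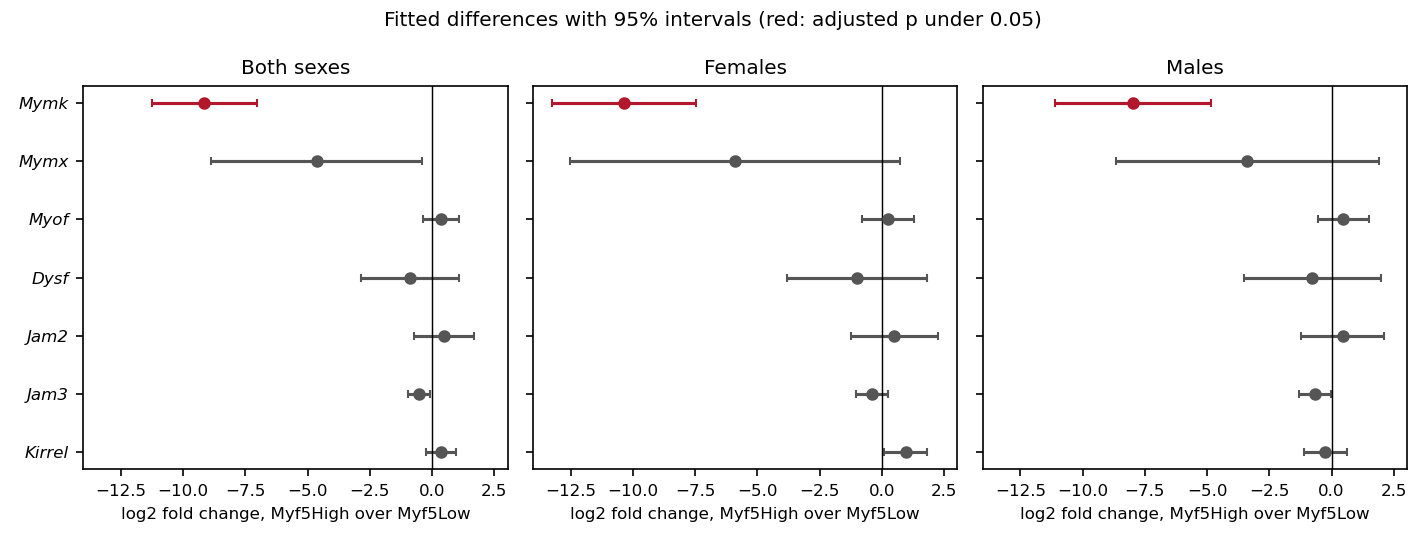
Fitted log2 fold change of Myf5High over Myf5Low (horizontal axis) with its 95% interval for the 7 tested members, over both sexes, in females and in males, with called members in red. Mymk is called in the 3 panels, its point being a fitted value that depends on the prior count of the fit and not a bound, and the intervals of Myof, Dysf and Jam2 include 0 in each panel.

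Per kilobase of exon, the members spanned a wide range of levels in Myf5Low. Jam3 had 24.1 ± 3.68 CPM per kb and Mymk 16.8 ± 19.0 CPM per kb, 2 values that do not differ beyond the spread of Mymk (SD, n = 4 each). Kirrel followed at 2.63 ± 0.718, Mymx at 1.74 ± 1.86, Myof at 1.23 ± 0.396, Jam2 at 0.868 ± 0.378, Dysf at 0.573 ± 0.499 and Adgrb3 at 0.0435 ± 0.0211 CPM per kb. From Kirrel to Dysf, neighbours in this order differed by less than the larger of their SDs. In female Myf5Low Mymk averaged 28.2 and Jam3 23.7 CPM per kb, and in male Myf5Low 5.35 and 24.5. The Mymk mean and SD depend on female Myf5Low replicate 2, at 44.8 CPM per kb. In female replicate 1 and male replicates 1 and 2, Mymk was at 11.6, 7.86 and 2.85 CPM per kb. Jam3 was at 19.2, 24.8 and 24.2 CPM per kb in these libraries. In Myf5High the order was Jam3 (16.7 ± 2.23), Kirrel (3.40 ± 0.993), Myof (1.59 ± 0.451), Jam2 (1.20 ± 0.754), Dysf (0.316 ± 0.202), Mymx (0.0585 ± 0.117), Adgrb3 (0.0415 ± 0.0656) and Mymk, which had 0 counts. Mymx, Adgrb3 and Mymk held 1, 10 and 0 counts over the Myf5High libraries, so their order is not resolved. Myof and Jam2 differed in Myf5High by less than the SD of Jam2. The exonic length merges all annotated transcripts, so levels of genes with long rare isoforms are understated.

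Other genes of the fusion pathway were taken from lists. Of 21 tested genes for adhesion and surface signalling in fusion, 0 were called between the fractions by edgeR, with a median log2 fold change of -0.0042. Of 28 tested genes for actin remodelling downstream of these receptors, which include Elmo1, Dock1 and Rac1, 0 were called, with a median of 0.07. Over all genes tested the median was -0.02, with 90 called higher and 51 called lower. Of 13 tested ferlin and membrane repair genes 1 was called, Ehd4, which encodes a membrane-shaping ATPase of endocytic recycling.

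Ehd4 was at 23.5 to 30.1 CPM in Myf5High and at 35.99 to 116 CPM in Myf5Low, and was lower in Myf5High in 4 of 4 pools (log2 fold change -1.45, SE 0.342; edgeR adjusted p 0.043). With the pool as a block it was not called (-1.27, edgeR adjusted p 0.0676). From Myf5High to Myf5Low, Ehd4 went from 24.2 to 116 CPM in F2 and from 26.3 to 95.6 CPM in M2. The change was smaller in F1, from 30.1 to 35.99 CPM, and in M1, from 23.5 to 37.0 CPM. Summed markers of other cell types also differed between these Myf5Low replicates, as given for Dysf above. Their part in the Ehd4 level was not tested. Among direct relatives of members, Kirrel3 was at 0.329 to 2.80 CPM in Myf5High and at 5.38 to 6.32 CPM in Myf5Low. The libraries of the fractions did not overlap, but its log2 fold change of -1.94 (SE 0.824) was not called (edgeR adjusted p 0.437). Kirrel2 had 1 count in all, Adgrb1 39, Otof 11 and Fer1l6 2, and Fer1l4 and Fer1l5 had 0.

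Of 23 tested genes of myogenic commitment 5 were called, 4 lower in Myf5High and 1 higher. Besides Myog and Cdkn1c, the lower ones were Chrna1, a subunit of the acetylcholine receptor (log2 fold change -1.17, SE 0.239; edgeR adjusted p 0.0151), and Dok7, which encodes an adaptor of the muscle-specific kinase (edgeR adjusted p 0.00144). Dok7 had 4 counts in female Myf5High replicate 1 and 0 in the other 3 Myf5High libraries, against 28 to 95 counts in Myf5Low, so its fitted fold change depends on the prior count and is not given. Neither Chrna1 nor Dok7 kept the library order of Mymk within Myf5Low. Chrna1 was at 66.5 and 85.8 CPM in the female and 76.6 and 54.7 CPM in the male Myf5Low libraries. Dok7 was at 12.6 and 22.3 CPM in the female and 6.27 and 11.2 CPM in the male ones. Des, the intermediate filament desmin, was higher in Myf5High (0.80, SE 0.191; edgeR adjusted p 0.0469). The list median was -0.40.

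Some markers of other cell types were called beside Mymk in this comparison. Acta2, a gene of smooth muscle and mural cells, was at 40.1 to 68.5 CPM in Myf5High and at 139 to 335 CPM in Myf5Low (edgeR adjusted p 0.000389). The immune gene C1qa was at 2.16 to 7.11 CPM in Myf5High and at 17.4 to 27.1 CPM in Myf5Low (edgeR adjusted p 0.00771). Of 10 mural markers, 1 was called lower and 1 higher in Myf5High (Des, which muscle cells also express), and their summed level was 1630 to 2732 CPM in Myf5High and 1049 to 1873 CPM in Myf5Low. Most of that sum was Des. Without Des the other 9 mural markers summed to 422 to 556 CPM in Myf5High and 421 to 808 CPM in Myf5Low. Of 12 endothelial markers 0 were called by edgeR, with a median log2 fold change of -0.44, and their summed level was 372 to 777 CPM in Myf5High and 527 to 1221 CPM in Myf5Low. With the pool as a block 1 of them was called, Tek, which was higher in Myf5High (log2 fold change 1.02, edgeR adjusted p 0.0288) and is named here after its value was seen. Of 9 tested glial markers 0 were called, at summed levels of 166 to 227 and 162 to 263 CPM, with Gfra3 at 0 counts. Of 9 tested fibro-adipogenic markers 1 was called, Dpt, which was higher in Myf5High (1.05, SE 0.176, edgeR adjusted p 0.00327). The 10 listed ones summed to 1978 to 2421 CPM in Myf5High and 1269 to 1671 CPM in Myf5Low. The largest part of that sum was Cd34, which averaged 954 CPM in Myf5High and 642 CPM in Myf5Low. Pdgfra had 52 counts in all. Cd34 and Pdgfra are named here after their values were seen, and the cells that gave the Cd34 level were not tested. Of 10 muscle stem cell markers 3 were called higher in Myf5High, namely Myf5, Chrdl2 and Calcr, the calcitonin receptor of resting stem cells, and 0 lower. Over all genes tested 1.2% were called in either direction. The fractions were sorted on the Myf5 reporter, so the Myf5 call is not independent of the sort. The log2 fold change of Chrdl2 was 1.33 with an edgeR adjusted p of 0.00554, and that of Calcr was 0.89 with an edgeR adjusted p of 0.0389. With the pool as a block Calcr was not called (0.88, edgeR adjusted p 0.0711). The part of these differences in cell type markers in the Mymk result was not tested.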

How the data were processed

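Polyadenylated RNA of 8 libraries was sequenced as single reads. The table deposited by the authors holds whole-number read counts, 1 row per Ensembl gene, made with HTSeq on GRCm38 per the submitters' processing notes. The aligner, annotation release and strand setting were not given in the sources used here. Without a strand setting, reads of antisense genes that share exonic bases with Jam3 (1159 bases) and Dysf (352 and 105 bases) cannot be told apart from theirs. Rows of unassigned reads (no feature, 41.96% to 45.3%; ambiguous, 0.248% to 0.296% of reads in the table) were left out. Symbols, positions and exonic lengths came from GENCODE M21 (27441 of 27554 genes matched).

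The counts were fitted with edgeR 4.0.16 under R 4.3.3, using filterByExpr (minimum count 10, minimum total 15), TMM scaling, 1 mean per group over all 8 libraries, glmQLFit and two-sided glmQLFTest, with Benjamini-Hochberg adjustment over 11730 genes. The F statistic of each log2 fold change gave its standard error. Levels are normalised CPM on the TMM-scaled library size of the genes tested. The common biological coefficient of variation was 0.36. Replicates differed by more than sampling noise (chi-square per degree of freedom 8.26 to 25.6). Intervals of log2 fold changes come from the edgeR fit and include the variation between libraries. Exact binomial intervals and floors cover counting error only, since the reads carry no molecular identifiers and may be PCR copies.

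Pool labels pair the fractions of a sex and replicate number, although the labels do not state outright that they share mice. Deviations of paired libraries from their group means correlated at 0.0275 in females and -0.0003 in males. Fits with the pool as a block were run as an alternative, as were RLE scaling, other filters, DESeq2 1.42.0, an additive model, fits of only the libraries compared, summed pools and leaving out each library. On simulated counts for the Myf5High against Myf5Low comparison (11327 genes passing, 200 changed by a log2 fold change of 2), edgeR recovered 172 with 8 false calls, the block fit 173 with 8, and DESeq2 179 with 21. With no gene changed they made 1, 0 and 1 calls. The changed genes were drawn from those averaging at least 5 CPM. The recovery therefore does not cover Mymx, Dysf and Adgrb3, which averaged 0.925, 3.71 and 0.789 CPM. No effect of pool or sex was simulated, so how the block fit handles a pool effect was not tested.

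The members and gene lists were chosen with earlier results of these data known. All 8 members were named. Of the other lists, genes called in Myf5High against Myf5Low, Myod1, Myog, Myf5, Pax7 and direct relatives of members could be named, together with the 3 genes most like a called member.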

Additional observations from a re-analysis of the deposited data

Results flagged for a closer look

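Within the 4 libraries of a fraction or of a sex, a library was marked when its gap to the nearest other library took a larger share of the range than Dixon's 95% critical value for 4 libraries. This was checked in 31 overlapping sets of 4 libraries, and 5 were marked. The critical value assumes independent and normally distributed values, so the share that chance would mark is not known here. A lone library above 0 in a set is always marked. Mymx stood apart in 3 sets, at 3.53 CPM (15 counts) in female Myf5Low replicate 2 among the female libraries, at 3.36 CPM (15 counts) in male Myf5Low replicate 1 among the male libraries, and at 0.24 CPM (1 count) in male Myf5High replicate 1 among the Myf5High libraries, the other 3 of which had 0. Adgrb3 stood apart at 2.59 CPM (8 counts) in female Myf5High replicate 1 among the Myf5High libraries. Myof stood apart at 27.3 CPM (83 counts) in male Myf5High replicate 2 among the male libraries. The sets of a sex hold both fractions, and the first 4 of these 5 values rest on 15 counts or fewer.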

How the results depend on the processing

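For Myf5High against Myf5Low, Mymk was called in each of the 15 alternatives run, with edgeR or DESeq2 adjusted p-values of 5.9e-23 to 0.00266, and the other 6 tested members were called in none of those that kept them. With the pool as a replicate block the same 1 member, Mymk, was called in each of the 3 comparisons of the fractions. Over both sexes its fitted log2 fold change was -9.25 (edgeR adjusted p 1.87e-05). With 0 Mymk counts in Myf5High, this value depends on the prior count of the fit and is not a bound. The block changed no other call of a member. Without a filter on low counts 291, 167 and 111 genes were called over both sexes, in females and in males, 14 for the interaction and 477 between the sexes, and with DESeq2 these counts were 234, 111, 80, 2 and 371. Fits of only the libraries compared called 77 genes in females and 2 in males. The member count in males fell to 0 in that fit and at a mean count of at least 50. With pools summed, the sex difference of Mymx turned to 0.10. The causes were not tested.

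Leaving out 1 library gave 82 to 243 genes called over both sexes, 9 to 117 in females, 8 to 74 in males, 0 to 8 for the interaction and 82 to 558 between the sexes, and 0 to 1 members called in females and in males. Calls of Mymk were lost in 6 alternatives of the comparisons within a sex. Of 501 member values under alternatives, 31 changed sign, each of a member not called. Over both sexes that of Dysf ranged from -2.36 to 0.22. In females Myof ranged from -0.22 to 0.97, Dysf from -3.95 to 0.64 and Jam2 from -0.15 to 0.96. In males Mymx ranged from -5.71 to 2.31, Dysf from -1.60 to 1.41, Jam2 from -0.47 to 0.99 and Kirrel from -0.48 to 0.044. Both ends of this Mymx range come from fits that leave a male group at 0 counts, so they depend on the prior count. For the interaction Mymx ranged from -8.18 to 0.15, Myof from -0.70 to 0.48, Dysf from -3.19 to 1.41 and Jam2 from -0.59 to 0.98. Between the sexes Mymx ranged from -2.40 to 1.78, Myof from -0.48 to 0.11, Dysf from -1.85 to 0.73, Jam3 from -0.059 to 0.20 and Kirrel from -0.050 to 0.20. Leaving Gm42418, a transcript with 20.1% to 28.8% of counts, out of the library size was added after seeing the data and called the same number of members. Where a group is left with 1 library, that library is assumed to vary like the others. Depth limits Mymx, Dysf, Jam2 and Adgrb3 most, with 32, 116, 195 and 23 counts in all.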
